A study of Mus musculus with 2 samples.

Results

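Messenger RNA of 10 genes of the endoplasmic reticulum (ER) was followed in pancreatic lymph nodes: the chaperones Hspa5, Hsp90b1 and Calr, the disulfide isomerases Pdia3 and Pdia4, the co-chaperones Dnajb9 and Sdf2l1, the ER-associated degradation (ERAD) genes Herpud1 and Edem1, and the transcription factor Xbp1. The genes were chosen by name, and every gene probe carrying one of these names was used, which gave 16 of the 41174 gene probes (10 of the 27845 gene names) on the array. The tissue came from female non-obese diabetic (NOD) mice, an inbred strain prone to autoimmune diabetes, all 16 weeks old. Each of 2 two-colour arrays compared a different hyperglycemic mouse, with more than 500 mg/dl of blood glucose and its RNA in Cy5, with RNA pooled from 2 euglycemic mice, with less than 200 mg/dl and in Cy3. Replication is therefore over 2 hyperglycemic mice (n = 2) against a single pool, and no p-value contains the spread among control mice. The dyes were never swapped, so a dye effect of a probe and the difference between the groups cannot be told apart.

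Proteins that enter the secretory pathway fold in the ER with the help of chaperones, which hold unfolded chains, and disulfide isomerases, which form and rearrange disulfide bonds. Chains that fail to fold are drawn back to the cytosol and degraded by the proteasome, the process called ERAD. When unfolded chains build up, the sensors Ern1, Eif2ak3 and Atf6 start the unfolded protein response, which raises chaperone and ERAD transcripts. Antibody-secreting plasma cells and the enzyme-secreting acinar cells of the pancreas are cell types known for an extensive ER.

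Promoter sequences are shown because the best known element of this response, the ER stress response element (ERSE: CCAAT, any 9 bases, then CCACG), and the shorter ERSE-II (ATTGG, any 1 base, then CCACG) tie several of these genes together. Both were searched on both strands from 250 bases before to 50 after each RefSeq transcript start (GRCm38.p6), and all 10 genes had an entry of 1 promoter. ERSE was present in 0.119% and ERSE-II in 0.0365% of 32851 mouse promoters. Hspa5, Calr and Hsp90b1 held an ERSE, Hsp90b1 held 2 of them, and Herpud1 held an ERSE-II. The other 6 promoters held neither string in this window. The 250 bases upstream of each start follow, 5′ to 3′ on the gene's strand, with the matched elements in capitals.
Herpud1, chr8:94386179-94386428, plus strand: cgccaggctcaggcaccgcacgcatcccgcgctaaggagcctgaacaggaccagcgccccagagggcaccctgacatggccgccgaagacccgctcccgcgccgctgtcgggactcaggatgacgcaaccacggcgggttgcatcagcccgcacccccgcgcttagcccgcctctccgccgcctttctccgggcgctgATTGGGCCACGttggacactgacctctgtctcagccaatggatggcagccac
Hspa5, chr2:34771840-34772089, plus strand: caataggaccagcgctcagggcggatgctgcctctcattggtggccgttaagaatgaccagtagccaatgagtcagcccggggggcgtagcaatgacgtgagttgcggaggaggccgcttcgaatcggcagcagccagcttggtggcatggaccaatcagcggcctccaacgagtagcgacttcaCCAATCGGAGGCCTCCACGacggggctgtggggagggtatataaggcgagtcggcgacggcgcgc
Calr, chr8:84846932-84847181, minus strand: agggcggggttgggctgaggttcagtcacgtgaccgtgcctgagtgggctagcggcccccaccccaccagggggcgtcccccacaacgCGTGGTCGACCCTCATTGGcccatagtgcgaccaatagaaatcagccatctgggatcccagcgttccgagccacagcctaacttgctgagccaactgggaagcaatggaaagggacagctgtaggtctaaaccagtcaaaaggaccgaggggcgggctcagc
Hsp90b1, chr10:86705445-86705694, minus strand: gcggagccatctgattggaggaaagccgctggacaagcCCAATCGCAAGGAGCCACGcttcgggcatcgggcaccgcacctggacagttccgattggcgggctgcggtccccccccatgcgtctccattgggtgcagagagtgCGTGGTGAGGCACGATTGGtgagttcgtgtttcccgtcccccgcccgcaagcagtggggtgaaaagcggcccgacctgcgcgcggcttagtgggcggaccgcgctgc

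Counted from the start, the Herpud1 element lay at -52 to -42 and the Hspa5 element at -65 to -47. The Calr element lay at -162 to -144, read on the opposite strand, and the Hsp90b1 elements at -212 to -194 and, on the opposite strand, -107 to -89. These matches describe the sequence and do not show that the sites are used.

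Signals below are the processed signals of the scanning software, background-subtracted and balanced between dyes, in arbitrary units. Levels of different probes were not set against each other. A ratio is log2 of Cy5 over Cy3, so that a positive value is a higher signal in the hyperglycemic mouse, and its SD is over both mice. A probe was tested where each of its 4 readings, Cy3 and Cy5 on either array, was well above background, which held for 5068 probes, and was called at an adjusted p under 0.05 by limma. Of the probes tested, 43.5% were called, 25.2% higher and 18.4% lower. The Cy5 channel was dim, with 14.5% and 16.4% of gene spots well above background on arrays 1 and 2. In Cy3 the shares were 21.7% and 63%. On array 1 the negative controls of Cy3 averaged -77.0 with an SD of 59.8, outside the range set by the scanning software, against -2.42 and 1.98 on array 2. Markers of lymph node tissue were measured in part. The filter on all 4 readings passed 4 of 9 B cell, 7 of 12 T cell and 5 of 7 stroma and vessel genes. Among them were the B cell gene Ms4a1, the T cell gene Cd3d and the stromal chemokines Ccl19, Ccl21a and Cxcl13.

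The 10 genes did not move as 1 group. Herpud1 was 5.75-fold higher in the hyperglycemic mice, 1 of 2 tested Hsp90b1 probes was higher, and Calr and Edem1 were lower. These calls rest on the filter: when probes bright in only 1 channel were admitted, the same ratios gave 0 calls on the whole array (3391 probes at an unadjusted p under 0.05), with adjusted p-values (limma) of 0.0574 for Herpud1, 0.0745 for Edem1, 0.0771 for Calr and 0.161 for the Hsp90b1 probe. The 7 tested probes covered 6 genes. Of these 7, 2 were called higher and 2 lower, that is 57.1% called beside 43.5% of all tested probes, so the share called was not far from that of the array. The median ratio of the 7 was 0.12, beside 0.06 for all tested probes. The other 9 probes were not well above background in Cy5 on 1 array (2 probes) or on both (7 probes), and they were below 0 on both arrays. Requiring signal in Cy5 leaves out low ratios, so the 7 tested probes do not stand for all 16, whose median was -0.73 with no test. Of the 9, 4 (the last Edem1, second Calr and 2 of the Dnajb9 probes) carried on array 1 a surrogate that the scanning software sets in place of a Cy5 signal near background, and 1 of them on array 2 as well, so these ratios are not measured levels. Among 2266 array probes that were bright in the pool and dim in Cy5 on both arrays, 84.7% were below 0 on both arrays. In bulk tissue, fewer cells of a type and less RNA per cell cannot be told apart.

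**Figure D1:**
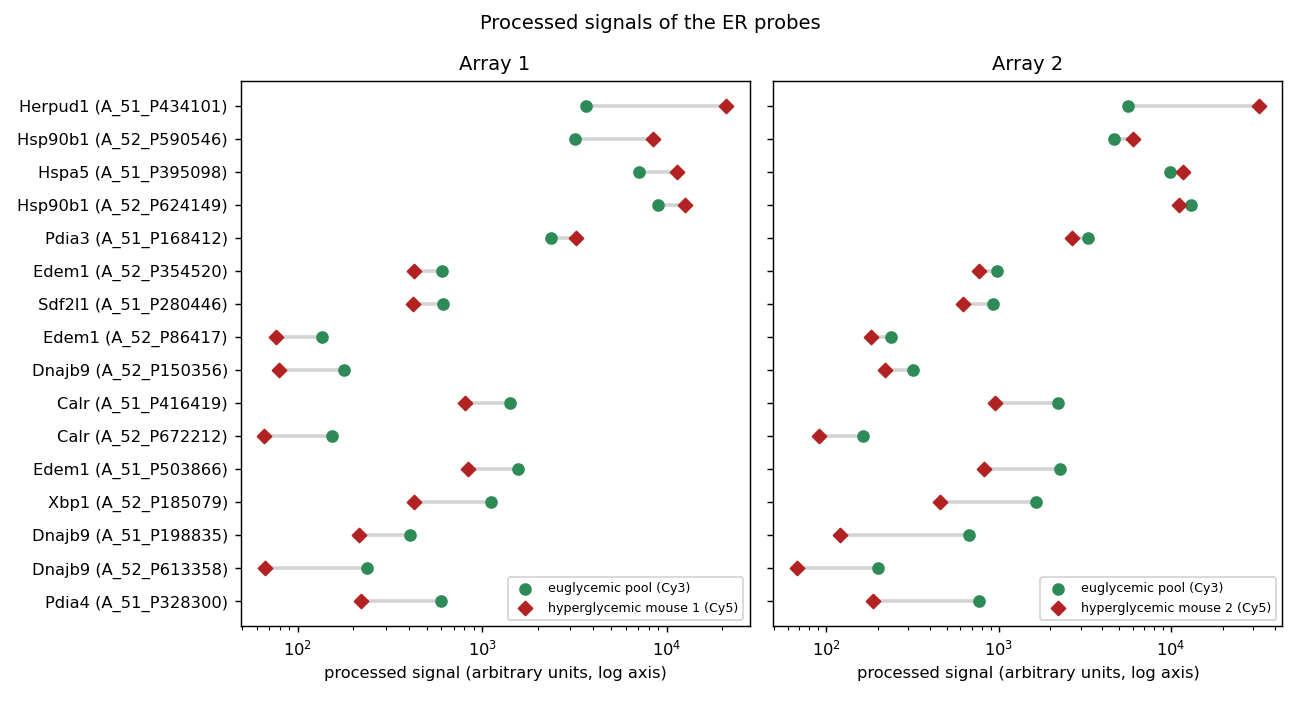
Processed signal (arbitrary units, log axis) of each of the 16 probes in the euglycemic pool (green circles, Cy3) and in the hyperglycemic mouse (red diamonds, Cy5) on each array. Herpud1 is far to the right of the pool in both mice (21047 and 32514 against 3653 and 5658), and the lower 11 probes lie to the left of it in both.

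Herpud1 encodes a ubiquitin-like ER membrane protein that helps to assemble the ERAD machinery at the ER membrane. Its probe (mm8 chromosome 8, 97284346 to 97284405) read 3653 in the pool and 21047 in hyperglycemic mouse 1, and 5658 in the pool and 32514 in hyperglycemic mouse 2. Both mice were far above the pool, and the ratios, 2.53 and 2.52, were nearly the same. The mean was 2.52 ± 0.0027 (SD, n = 2; adjusted p = 0.000292, limma), the 10th highest of the 5068 tested probes. The interval of the mean was 2.17 to 2.88 (95%). Before processing, its Cy5 spots read 473 and 623 over local backgrounds of 35 and 40, so the probe was bright in the dimmer channel.

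**Figure D2:**
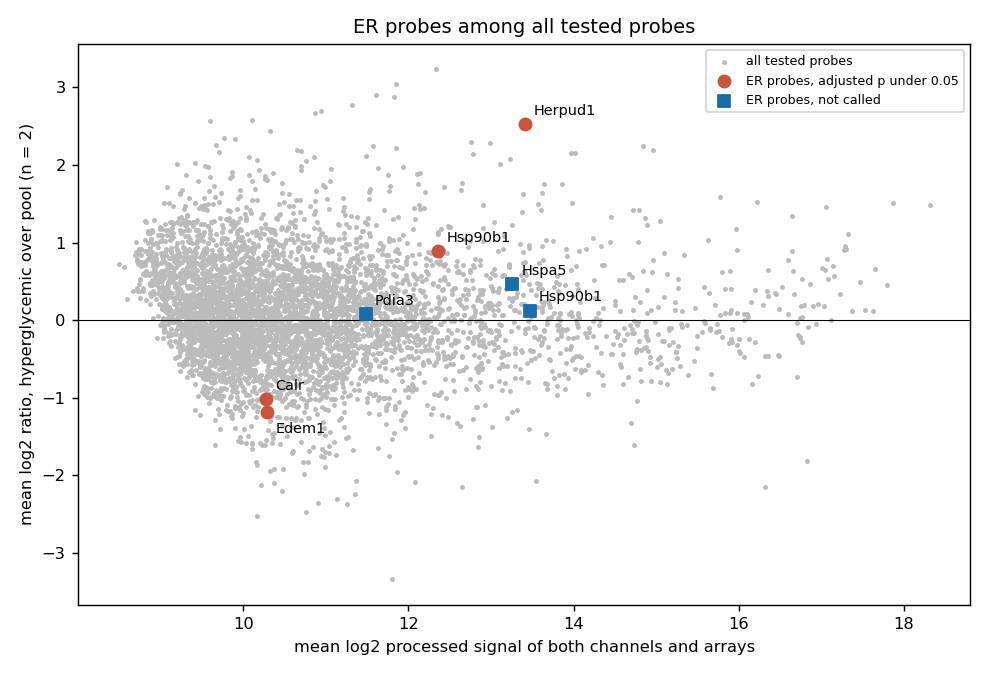
Mean log2 ratio (n = 2) against mean log2 processed signal for all 5068 tested probes (grey) and the 7 tested ER probes, called (orange circles) or not called (blue squares). Herpud1 at 2.52 lies near the top of the plot, whereas Calr and Edem1 lie at -1.01 and -1.18.

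Edem1, the other ERAD member, encodes a mannosidase-like lectin that extracts misfolded glycoproteins for degradation, and it fell. Its tested probe (chromosome 6, 108824703 to 108824762) read 1568 in the pool and 834 in mouse 1, and 2257 in the pool and 828 in mouse 2. The ratios were -0.91 and -1.45, both below the pool, and the mean of -1.18 ± 0.38 was 2.26-fold lower (adjusted p = 0.00286, limma). A second probe (108820045 to 108820104) was well above background in Cy5 on array 2 alone and had ratios of -0.52 and -0.35. In the scanner-signal fit described below, this second probe was at -0.10 (adjusted p = 0.610, limma). The last (108822675 to 108822734) was dim in Cy5 on both arrays at -0.83 and -0.38. The 3 probes had the same sign in both mice, with the array 1 ratio of the last resting on a surrogate Cy5 signal.

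**Figure D3:**
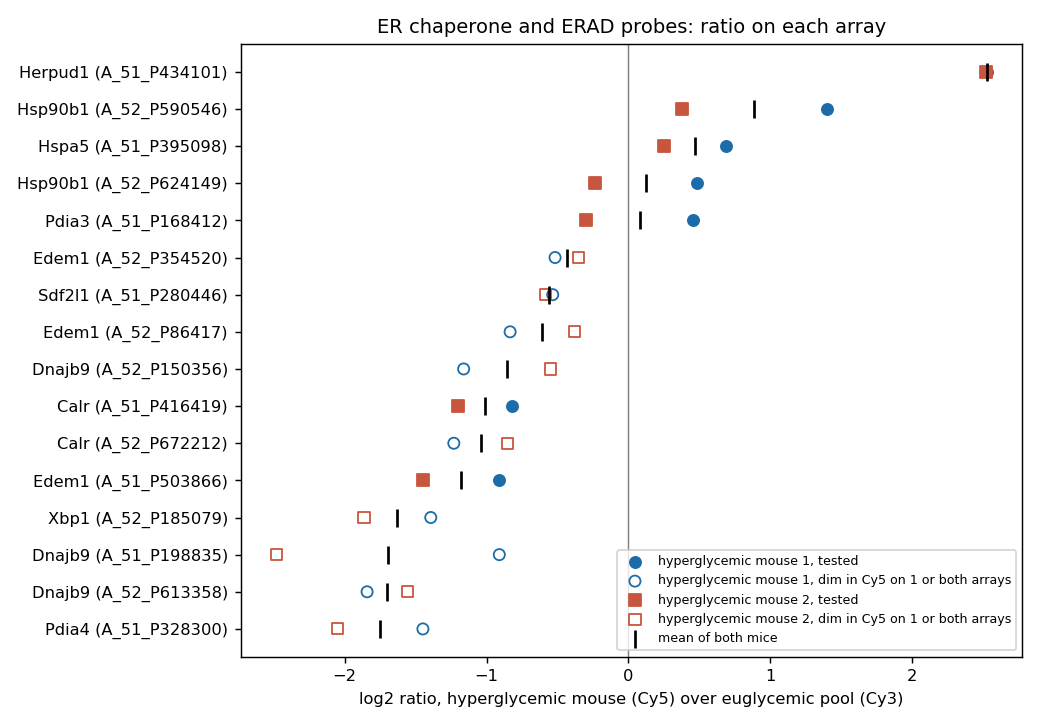
log2 ratio of each probe in hyperglycemic mouse 1 (blue circles) and mouse 2 (orange squares) over the pool, with the mean as a black bar. Filled symbols are tested probes and open symbols are probes not well above background in Cy5 on 1 or both arrays. Herpud1, 1 Hsp90b1 probe and Hspa5 are above 0 in both mice, and 11 probes are below 0 in both.

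Hspa5 (BiP), the main ER chaperone of the Hsp70 family and the usual reporter of the unfolded protein response, was not called. Its probe (chromosome 2, 34598119 to 34598178) read 7072 in the pool and 11385 in mouse 1, and 9802 in the pool and 11684 in mouse 2. Both mice were above the pool, at ratios of 0.69 and 0.25. The mean was 0.47 ± 0.31 (adjusted p = 0.0611, limma; interval 0.07 to 0.87). It passed the threshold with no background correction (0.58, adjusted p = 0.0118), with a further loess (0.46, adjusted p = 0.0473) and when the variance was allowed to depend on intensity (adjusted p = 0.0166). It did not pass with median centring (0.42, adjusted p = 0.0700, limma) or with 1 probe a gene (adjusted p = 0.0622). Nor did it pass with probes bright in only 1 channel admitted (adjusted p = 0.204), or in the scanner-signal fit described below (0.94, adjusted p = 0.0755, limma). The interval does not reach the Herpud1 value.

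Hsp90b1 (Grp94), the ER member of the Hsp90 family, gave unlike readings from different probes. The probe nearer the 5′ end (chromosome 10, 86128383 to 86128442) read 3197 in the pool and 8435 in mouse 1, and 4646 and 6025 on array 2. Its ratios were 1.40 and 0.37, both above 0 but 2.03-fold apart, with a mean of 0.89 ± 0.72 (1.85-fold higher, adjusted p = 0.0229, limma). The probe nearer the 3′ end, 7559 bases away (86120824 to 86120883), read 8995 in the pool and 12595 in mouse 1, and 13074 in the pool and 11093 in mouse 2. It was above the pool in mouse 1 and below it in mouse 2, at 0.49 and -0.24 (mean 0.12 ± 0.51, adjusted p = 0.647, limma; interval -0.35 to 0.60). The 5′ probe exceeded the 3′ probe by 0.91 on array 1 and by 0.61 on array 2. An Hsp90b1 probe that the files name only by an assembly number, and which is therefore outside the 16, was dim in Cy5 at -1.96 and -2.62. The gap between the tested probes depended on the processing, since the scanner-signal fit had them at 0.84 and 0.85.

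Calr (calreticulin), the lectin chaperone that holds newly made glycoproteins and buffers calcium in the ER lumen, fell. Its tested probe (chromosome 8, 87732398 to 87732457) read 1416 in the pool and 801 in mouse 1, and 2201 in the pool and 955 in mouse 2. Both mice were below the pool, at -0.82 and -1.20, and the mean of -1.01 ± 0.27 was 2.02-fold lower (adjusted p = 0.00365, limma). The second Calr probe (87734735 to 87734794), dim in Cy5 on both arrays and in the pool on 1 array, read -1.23, from a surrogate Cy5 signal, and -0.85.

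Pdia3 (ERp57) works with calreticulin and calnexin on the disulfide bonds of glycoproteins and is part of the complex that loads MHC class I. Its probe (chromosome 2, 121129247 to 121129307) read 2349 in the pool and 3226 in mouse 1, and 3289 in the pool and 2677 in mouse 2. The mice lay on opposite sides of the pool, at 0.46 and -0.30 (mean 0.08 ± 0.53, adjusted p = 0.773, limma; interval -0.40 to 0.56). Pdia4 (ERp72), another disulfide isomerase (chromosome 6, 47726103 to 47726162), read 598 in the pool and 219 in mouse 1, and 770 and 186 on array 2. It was not well above background in Cy5 on either array. Its Cy5 signal was therefore raised to the lowest Cy5 signal well above background on the array. This was done after quantile normalization of mean brightness between the arrays (limma, Aquantile), which keeps ratios but changes the signals printed above. So set, Pdia4 was 2.26-fold lower on these rescaled signals (1.84-fold on array 1 and 2.76-fold on array 2). These values are open to dye bias and are not strict bounds. Xbp1 read above that lowest signal on both arrays and still was not well above background. The Pdia4 folds apply to the rescaled processed signals alone: in a fit of the scanner signals, described below, Pdia4 was at -0.15 (adjusted p = 0.476, limma).

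Xbp1 is the factor that splicing by Ern1 activates and that plasma cells need to secrete antibody. On both arrays it was well above background in the pool (Cy3) and not in Cy5, the dimmer channel. Its probe (chromosome 11, 5424970 to 5425029) read 1113 in the pool and 424 in mouse 1, and 1657 and 455 on array 2. Its ratios were -1.39 and -1.86 (mean -1.63 ± 0.33, no test in the fit used here), and the scanner-signal fit had it at -0.41 (adjusted p = 0.203, limma). With probes bright in only 1 channel admitted, no probe of the array was called, and Xbp1 had an adjusted p of 0.0593, Pdia4 of 0.0604 and Herpud1 of 0.0574 (limma). The array does not separate spliced from unspliced Xbp1.

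Dnajb9 (ERdj4), an Hspa5 co-chaperone that Xbp1 induces, had 3 probes, all dim in Cy5. The brightest (chromosome 12, 45076612 to 45076671) read 405 in the pool and 216 in mouse 1, and 673 and 120 on array 2. With Cy5 set as for Pdia4, it was 1.75-fold lower on the rescaled signals (1.26-fold on array 1 and 2.45-fold on array 2), again not a strict bound. In the scanner-signal fit it was at -0.20 (adjusted p = 0.400, limma). The other probes (45076732 to 45076791, and 45077208 to 45077267) had ratios of -1.16 and -0.55, and of -1.84 and -1.56, where the first value of the former and both of the latter rest on a surrogate, from signals at most 319 in the pool. Sdf2l1, an ER protein that helps to keep unfolded chains from aggregating (chromosome 16, 17043896 to 17043955), read 611 in the pool and 422 in mouse 1, and 927 and 620 on array 2. It was well above background in Cy5 on array 2 alone, with ratios of -0.53 and -0.58 and no test in the fit used here. In the scanner-signal fit Sdf2l1 was at -0.13 (adjusted p = 0.559, limma).

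The ratios differed in the same order for every tested probe: all 7 had the higher ratio in mouse 1, as did 57.5% of all tested probes. Each mouse was on its own array, so a difference between the mice and one between the arrays cannot be told apart. The gap was 0.0038 for Herpud1, and 0.38 to 1.02 for the other 6, beside a middle range of -0.16 to 0.29 over all tested probes. For Pdia3 and the 3′ Hsp90b1 probe the gap changed the sign. Over all 16 probes, 11 had the higher ratio in mouse 1.

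The other genes of the pathway were listed by their textbook roles. Of 20 tested ER chaperones and folding enzymes outside the 10 genes, 6 were higher, 2 lower and 12 not called (40% called beside 43.5%), with a median ratio of 0.09. Sec63, which couples Hspa5 to the translocon, was at 1.11 ± 0.26 (adjusted p = 0.00268, limma). The Hspa5 exchange factor Hyou1 was at 0.98 ± 0.48, the collagen chaperone Serpinh1 at 0.90 ± 0.14, and the lectin chaperone Canx at 0.77 ± 0.0028. Canx, the membrane-bound partner of Calr, was thus called in the direction opposite to Calr, although its second tested probe read -0.35. The lower genes were the prolyl isomerase Fkbp2 at -0.78 ± 0.10 and the thioredoxin-like Txndc11 at -0.54 ± 0.27.

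ERAD genes outside the 10 had a median ratio of 0.44. Of 19 tested, 7 were higher and 2 lower (47.4% called beside 43.5%). The ubiquitin-conjugating enzyme Ube2j1 was at 1.18 ± 0.12 (adjusted p = 0.00174, limma), and the ER ubiquitin ligases Rnf139 at 1.11 ± 0.21 and Marchf6 at 0.99 ± 0.05. The conjugating enzyme Ube2g2 was at 0.80 ± 0.11. The lower ones were Derl2, a channel component, at -0.85 ± 0.08 and Aup1, which recruits Ube2g2, at -0.73 ± 0.27. All were below Herpud1 in size.

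Most sensors and transcription factors of the unfolded protein response were too dim on at least 1 array to test. Of 22 genes, 8 were tested, with 3 higher, 0 lower and 5 not called (37.5% called beside 43.5%), and a median of 0.25. Sesn2, a stress-induced regulator of nutrient signalling, was at 0.73 ± 0.09, the oxidative stress factor Nfe2l2 at 0.68 ± 0.07, and the protease Mbtps1, which cleaves Atf6, at 0.54 ± 0.00053. Ern1, Eif2ak3, Atf6 and Ddit3 were among the 14 not tested. Ddit3 (CHOP), the death-linked factor of prolonged stress, was dim in Cy5 on both arrays, at processed signals of 74.9 and 85.0 against 123 and 232 in the pool.

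Of the tested genes of the translocon, signal peptidase and ER export, 4 of 22 were higher and 2 lower (27.3% called beside 43.5%), with a median of -0.01. Srpr, the signal recognition particle receptor, was at 0.89 ± 0.87, and the cargo receptor Surf4 at 0.89 ± 0.10. The translocon-associated Ssr3 and Ssr1 were at 0.54 ± 0.31 and 0.52 ± 0.0073. Ddost, of the glycosylation complex, was at -0.80 ± 0.17, and the signal peptidase subunit Spcs2 at -0.56 ± 0.09. No test of the difference between lists was made.

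Cytosolic heat-shock chaperones had a median of -0.36, with 3 higher and 3 lower of 10 tested (60% called beside 43.5%). The Hsp40 proteins Dnajb1 and Dnaja1 were at -1.19 ± 0.29 and -1.01 ± 0.15, although a second Dnaja1 probe read 0.74, and constitutive Hspa8 was at -0.90 ± 0.28. The small heat-shock protein Hspb1 was at 1.08 ± 0.55, Hsf1 at 0.86 ± 0.39 and mitochondrial Hspa9 at 0.55 ± 0.23.

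**Figure D4:**
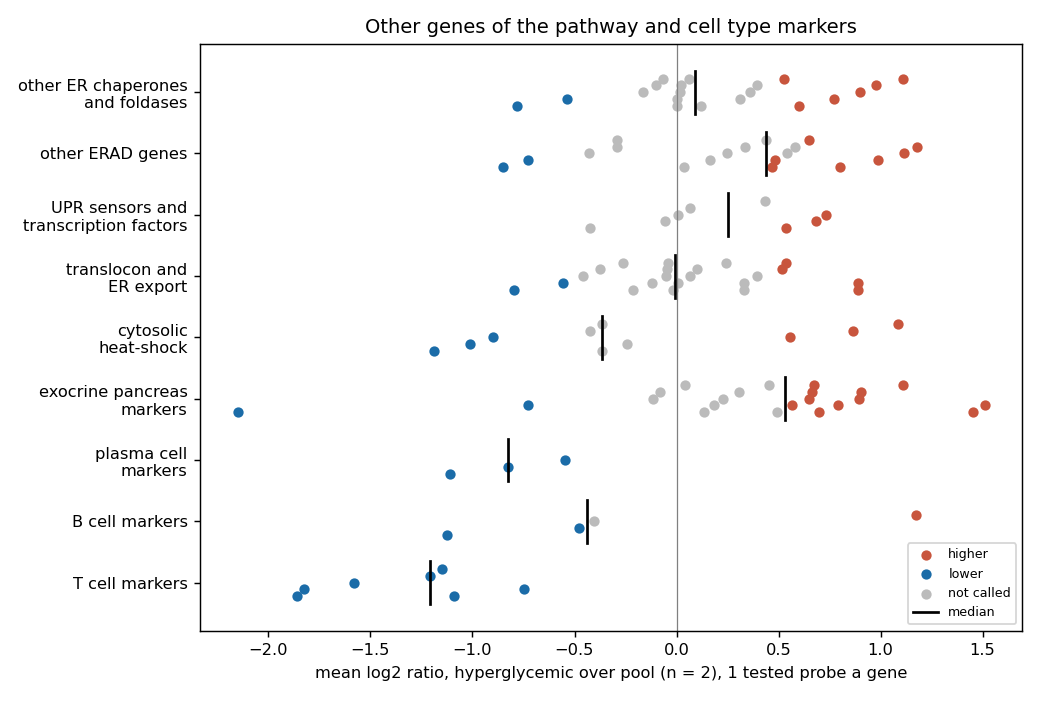
Mean log2 ratio (n = 2) of each tested gene of the pathway lists and of cell type markers, 1 probe a gene, called higher (orange), called lower (blue) or not called (grey), with each list's median as a black bar. The lists of the ER spread to both sides of 0 with medians from -0.01 to 0.44, the exocrine markers have a median of 0.53 and the T cell markers one of -1.21.

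Markers of cell types with an extensive ER differed between the groups as well. Of 22 tested exocrine pancreas markers, 11 were higher and 2 lower (59.1% called beside 43.5%), with a median of 0.53. The higher ones included Try5 (trypsin) at 1.51 ± 0.18, Ctrb1 at 1.11 ± 0.35 and Clps at 0.90 ± 0.18. The lower ones were Amy2a5 at -2.15 ± 0.13 and Cela1 at -0.73 ± 0.70. In the scanner-signal fit both turned, to 1.44 for Amy2a5 (adjusted p = 0.151, limma) and 3.28 for Cela1 (adjusted p = 0.00407, limma), and the list had 20 higher and 0 lower of 22. Their summed processed signal over 23 genes was 2097370 in the pool and 2726610 in mouse 1, and 2998090 in the pool and 4872270 in mouse 2. Plasma cell markers were lower for 3 of 3 tested, beside 18.4% of all tested probes. Ighg was at -1.11 ± 0.07, Mzb1 at -0.83 ± 0.18 and Jchain at -0.55 ± 0.04. In the scanner-signal fit 1 of 4 was lower, and Jchain was at 0.14 (adjusted p = 0.637, limma). The plasma cell sum over 9 genes was 17958 in the pool and 11508 in mouse 1, and 28486 and 17195 on array 2. The defining plasma cell genes Sdc1, Prdm1, Irf4 and Tnfrsf17 were dim in Cy5 on both arrays and in the pool on 1 array. Their part in the ratios of the ER genes was not tested.

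The remaining markers also gave ratios away from 0, by amounts that depended on the processing. T cell markers were lower for 7 of 7 tested, beside 18.4% of all tested probes, with a median of -1.21. In the scanner-signal fit 1 of 10 was lower, beside 0.488% of all probes tested there, with a median of -0.53. The T cell sum over 12 genes was 23800 in the pool and 10344 in mouse 1, and 36600 and 15632 on array 2. B cell markers had 1 higher (Pax5, 1.17 ± 0.75) and 2 lower (among them Ms4a1, -1.12 ± 0.06) of 4 tested (75% called beside 43.5%). Their median was -0.44, against 0.00 in the scanner-signal fit. Stroma and vessel markers had 2 higher and 1 lower of 5 tested (60% called beside 43.5%), with a median of -0.42 that was 1.01 in the scanner-signal fit. All 8 islet genes were dim in Cy5 on both arrays, and 4 of them were dim in the pool on both as well. The Ins2 probe was well above background in the pool on both arrays, at 761 and 492 against 79.9 and 102 in Cy5. In the scanner-signal fit Ins2 was at -0.25 (adjusted p = 0.234, limma). How far these shifts bear on the ER genes was not tested.

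A fit of the scanner signals with another background correction (normexp, offset 50, with loess) and probes bright in at least 1 channel tested 8804 probes and called 5.26% of them (4.77% higher and 0.488% lower). There 12 of the 16 probes were tested and Herpud1 alone was called, at 2.87 (adjusted p = 0.00277, limma). Edem1 and Calr were both at -0.43 (adjusted p = 0.140 and 0.194), and the 5′ and 3′ Hsp90b1 probes had adjusted p-values of 0.233 and 0.238. Brightness matters in that fit: its brightest decile of probes had a median ratio of 0.65, against -0.12 to -0.01 in the other deciles. By brightness in the processed-signal fit, Herpud1, Hspa5 and the 3′ Hsp90b1 probe lay in decile 10, the brightest, and the 5′ probe in decile 9. The deciles of these probes in the scanner-signal fit were not recorded. In the processed-signal fit the deciles had medians of -0.03 to 0.10, except 0.49 in the dimmest, which holds none of the 7 probes. The medians of the pathway lists in the scanner-signal fit were 0.02 for other ER chaperones, 0.08 for ERAD, 0.04 for sensors and factors, 0.06 for the translocon list and -0.23 for the heat-shock list, and that of the exocrine markers was 4.84. That fit called 1 of 24 other ER chaperones and 4 of 25 translocon genes.

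Promoters with an ERSE or ERSE-II belonged to 49 genes, 14 of them with a tested probe of the same gene name. Genes that the array lists under an older name were not matched, so the counts here may be incomplete. Outside the 4 genes described above, 10 were tested, and 2 were called higher and 0 lower, beside 25.2% and 18.4% of all tested probes, with a median of 0.02. Those 2 were Canx at 0.77 and the ERAD channel gene Derl3 at 0.48 (adjusted p = 0.0492, limma). Of the 3 genes with an ERSE, Hspa5 was not called, Hsp90b1 was higher by 1 of 2 probes and Calr was lower, and Herpud1, with the ERSE-II, was higher.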

How the data were processed

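Agilent Feature Extraction 10.7.3.1 made the deposited spot and background intensity columns, which are not normalized, per the file headers. Its processed signals are intensity values, background-subtracted, spatially detrended and dye-normalized by a linear factor and LOWESS, per the file headers. The deposited LogRatio column holds log10 of Cy5 over Cy3, per the file headers. The deposited value table holds log2 ratios for 5098 probes that match the processed signals (slope 1.00, r = 1.00); how its probes were chosen is not given in the sources used here.

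Spots marked as outliers (614 and 266) were left out and spots of a probe averaged. No spot was saturated. The mean log2 ratio of processed signals was tested against 0 with limma 3.58.1 under R 4.3.3 (two-sided, 7.35 total degrees of freedom after moderation), with Benjamini-Hochberg adjustment over the 5068 probes that stood well above background in all 4 readings. The fit was also run on simulated data with the same SD for every probe and no dye or brightness effect. That run therefore does not bear on the filter or the processing. The scanner-signal fit used normexp (offset 50) and loess (span 0.3). Genes of the lists took the brightest tested probe, and the named ones are the called genes with the largest change, up to 4 in each direction; some marker genes are not reported here. Members, lists and fits were chosen with earlier results of these data known. Nothing says whether the mice were littermates. The number of arrays limits the precision. Probe positions are those of mm8 in the files, which give no exon or UTR. Promoters are RefSeq, GRCm38.p6.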

Additional observations from a re-analysis of the deposited data

How the results depend on the processing

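No paired analysis was possible because a single pool served as control for each mouse. With the deposited value table, median centring, a further loess, an intensity trend or no background correction, Herpud1 and the 5′ Hsp90b1 probe stayed called higher and Edem1 and Calr called lower; a further loess, the trend and no background correction each gave 3 higher by adding Hspa5. Leaving out either mouse kept the sign of Herpud1 (2.52 to 2.53), Edem1 (-1.45 to -0.91) and Calr (-1.20 to -0.82), with no test. With 1 probe a gene, 1 of the 10 genes was higher, since the 5′ Hsp90b1 probe gave way to the brighter one.

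All probes gave 1275 higher and 930 lower calls. The filter on at least 1 channel and no filter gave 0 higher and 0 lower calls, for the ER probes as well, against 3391 and 5032 probes at an unadjusted p under 0.05; Herpud1 then had an adjusted p of 0.0574 and 0.326. Normexp offset 10 with loess also gave 0 and 0, against 1130 at an unadjusted p under 0.05 (Herpud1 2.85, adjusted p = 0.120). Normexp offset 50 with loess gave 110 higher and 0 lower, and 1 and 0 of the ER probes; with the filter on 1 channel it gave 420 and 43, and again 1 and 0. Normexp offset 50 with median centring moved the median of all probes to -2.55 and called 0 higher and 5067 lower, with 0 and 7 of the ER probes. There Herpud1 was at -1.46, the Hsp90b1 probes at -2.89 and -3.63, Hspa5 at -3.35 and Pdia3 at -3.29, so Herpud1 was still above that median. Pdia3 was at -0.0746 with normexp offset 50 under either filter, -0.0799 with offset 10 and -0.0209 with no background correction. The cause was not tested. Weak Cy5 signal limits 9 of the 16 probes, of which only 5 were well above background in the pool on both arrays.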
